A study of Mus musculus with 6 samples.

Results

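The genes described here make the proteins that copy DNA. They were 50 genes fixed by name, from the helicase that opens the double helix to the enzymes that supply nucleotides, and all 50 were found among 19938 genes measured by array. A gene was followed through the probe sets (groups of probes for 1 transcript) annotated with its symbol alone, and where it had several, through the brightest over all 6 arrays. The cultures were of W4, a mouse embryonic stem cell line, kept for 16 days in a neural differentiation medium with B27, N2, bFGF, laminin and insulin on coated plates. In the VPA group (3 arrays) the cells had 300 uM valproate throughout, an antiepileptic drug that inhibits histone deacetylases and that the labels call a developmental neurotoxicant at a sub-toxic dose. The PBS group (3 arrays) had the solvent, phosphate-buffered saline, over the same time. Both groups are of 1 cell line, the arrays of each are described as biological replicates, and each array holds RNA of a whole culture, so that a larger share of dividing cells and more RNA per cell cannot be told apart. The comparison asks which transcripts differ when valproate is present while stem cells turn into neurons.

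Eukaryotic DNA is copied once per cell cycle. In G1 the origin recognition complex, with Cdc6 and Cdt1, loads the ring of Mcm2 to Mcm7 on chromatin (licensing). In S phase Cdc45 and the GINS complex turn that ring into the active helicase, after which primase, the DNA polymerases, the sliding clamp PCNA and its loader extend the strands. Many of these genes are transcribed under the E2F factors as a cell commits to divide, and their transcripts are low in neurons, which have left the cell cycle.

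Since E2F factors act at promoters, the windows of the genes with the largest rises and of the gene that fell are shown before their values. RefSeq (build GRCm38.p6) gave a window of 300 bases, 250 before the transcript start and 50 from it on, for 42 of the 50 genes by symbol. The windows below are written 5′ to 3′ on the strand of the gene, and capitals mark E2F motifs and the CCAAT box on either strand. Those of Mcm6 lie at chr1:128359656-128359955 (minus strand), of Pole2 at chr12:69228141-69228440 (minus strand), and of Orc4, the first of 3 windows listed for it, at chr2:48950032-48950331 (minus strand).
Mcm6: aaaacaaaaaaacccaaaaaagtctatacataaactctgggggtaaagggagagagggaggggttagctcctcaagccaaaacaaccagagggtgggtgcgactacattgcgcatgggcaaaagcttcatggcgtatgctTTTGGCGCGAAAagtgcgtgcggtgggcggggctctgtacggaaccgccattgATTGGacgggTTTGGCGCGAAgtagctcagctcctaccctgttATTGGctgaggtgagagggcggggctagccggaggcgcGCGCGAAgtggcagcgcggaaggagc
Pole2: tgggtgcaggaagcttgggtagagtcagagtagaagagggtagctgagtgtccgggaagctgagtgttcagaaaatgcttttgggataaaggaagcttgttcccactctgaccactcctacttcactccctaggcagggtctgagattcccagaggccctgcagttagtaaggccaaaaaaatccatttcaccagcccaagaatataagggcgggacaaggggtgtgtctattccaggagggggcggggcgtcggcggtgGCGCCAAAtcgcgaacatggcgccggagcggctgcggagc
Orc4: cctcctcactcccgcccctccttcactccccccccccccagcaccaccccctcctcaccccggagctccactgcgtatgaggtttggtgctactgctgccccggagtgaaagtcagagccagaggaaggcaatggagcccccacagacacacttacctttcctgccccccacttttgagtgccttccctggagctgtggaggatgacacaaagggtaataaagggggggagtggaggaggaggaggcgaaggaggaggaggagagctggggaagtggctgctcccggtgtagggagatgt

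The Mcm6 window holds TTTGGCGC at 2 places, each of which runs into TTCGCGC on the other strand (the first of them as the longer TTTCGCGC), a further TTCGCGC downstream of the start, and 2 CCAAT boxes. The Pole2 window holds 1 TTTGGCGC, on the strand opposite the gene (it reads gcgccaaa in the window) and downstream of the start. The Orc4 window shown holds none of the motifs in capitals, though CCAAT occurs in another of the 3 windows listed for Orc4. The E2F forms searched on both strands were TTTCGCGC, TTTGGCGC, TTTCCCGC and the shorter TTCGCGC and TTGGCGC, which lie within the first and the second. At least 1 of them occurred in the windows of 22 of the 42 genes (52.4%) and of 1503 of all 27025 genes of the table (5.56%). The full TTTCGCGC was found for 7 of 42 (16.7%) against 0.374% of all genes, and TTTGGCGC also for 7 against 0.585%. TTTCCCGC occurred for 9 of 42 (21.4%) against 1.24%, TTCGCGC for 8 (19.0%) against 1.81%, and TTGGCGC for 12 (28.6%) against 2.85%. The windows of these genes were also richer in G and C, with a median of 61.3% against 52.7% over all windows. CCAAT was present for 26 of 42 (61.9%) against 41.1% of all genes, and TTTGAA, the core of the CHR element of late cell cycle genes, for 4 of 42 (9.52%) against 20.2%. An E2F form occurred for 12 of the 23 genes with a window that rose with VPA and for 10 of the 18 that passed the threshold in neither direction (no test was made of these counts).

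The array medians were nearly equal, at 6.99 to 7.03 (log2). The values were deposited as normalized, by a method not given, so each change is read as relative to the other genes. VPA replicate 1 stood apart from the other VPA arrays over all genes, with a median absolute difference of 0.12 from VPA replicate 2 and 0.13 from VPA replicate 3, against 0.07 between those and 0.06 to 0.07 among the PBS arrays. Over the 50 replication genes these differences were 0.10, 0.12 and 0.11 among the VPA arrays, and 0.07 to 0.08 among the PBS arrays. No scan dates or other batches were used here. The means of all 15 neuron marker genes lay in both groups above 6.15. So did those of all 14 fibroblast and matrix genes measured. Neuron transcripts were thus present, but their presence cannot tell what share of the cells were neurons. The value of 6.15 is the 95th percentile of 1027 genes of olfactory receptors, mostly silent in cells outside the nose, and is used below as a gauge of background.

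With VPA, 28 of the 50 DNA replication genes rose, 1 fell and 21 passed the threshold in neither direction. The threshold was a Benjamini-Hochberg adjusted p under 0.05 in limma, adjusted over all 19938 genes. Of all genes, 13.6% rose and 15.7% fell by the same rule. The rises were modest. Their median was 0.36 on the log2 scale, or 1.28-fold, against 0.39 or 1.31-fold for all genes that rose, and 3 of the 50 rose by at least 1.5-fold, a size that 3.49% of all genes passed. Over all 50 genes the median change was 0.23, against 0.0013 over all genes, and 41 of the 50 changes were above 0.

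The shift was present on every VPA array. Taken against the mean of the PBS arrays, the median over the 50 genes was 0.24 on VPA replicate 1, 0.19 on VPA replicate 2 and 0.27 on VPA replicate 3, against 0.04, -0.03 and -0.01 on the PBS arrays. VPA replicate 2 gave the lowest VPA value for 28 of the genes and VPA replicate 3 the highest for 30. All VPA arrays lay above all PBS arrays for 36 of the 50 genes, where 20.2% of all genes did so, and below them for 4, where 23.8% did. The number that rose was 29 without VPA replicate 1, 28 of them the same genes, and 18 without PBS replicate 3, the array whose absence lowered it most. The limma variances are moderated, that is, drawn towards those of other genes of the array. With each gene's own variance alone, 12 of the 28 rises did not pass. Of these Cdt1 (adjusted p = 0.0694), Rfc1 (0.0508), Uhrf1 (0.0895) and Chaf1a (0.0706) kept the call without any 1 array. The other 8, Cdc6 (0.0911), Gmnn (0.112), Gins2 (0.17), Pold1 (0.15), Pold2 (0.139), Rfc5 (0.0886), Rrm1 (0.0931) and Brca1 (0.151), also lost it without at least 1 array, as given for each below. Prim2, at 0.11 (adjusted p = 0.0427), and Pold3, at -0.12 (adjusted p = 0.0486), passed only in this setting.

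**Figure D1:**
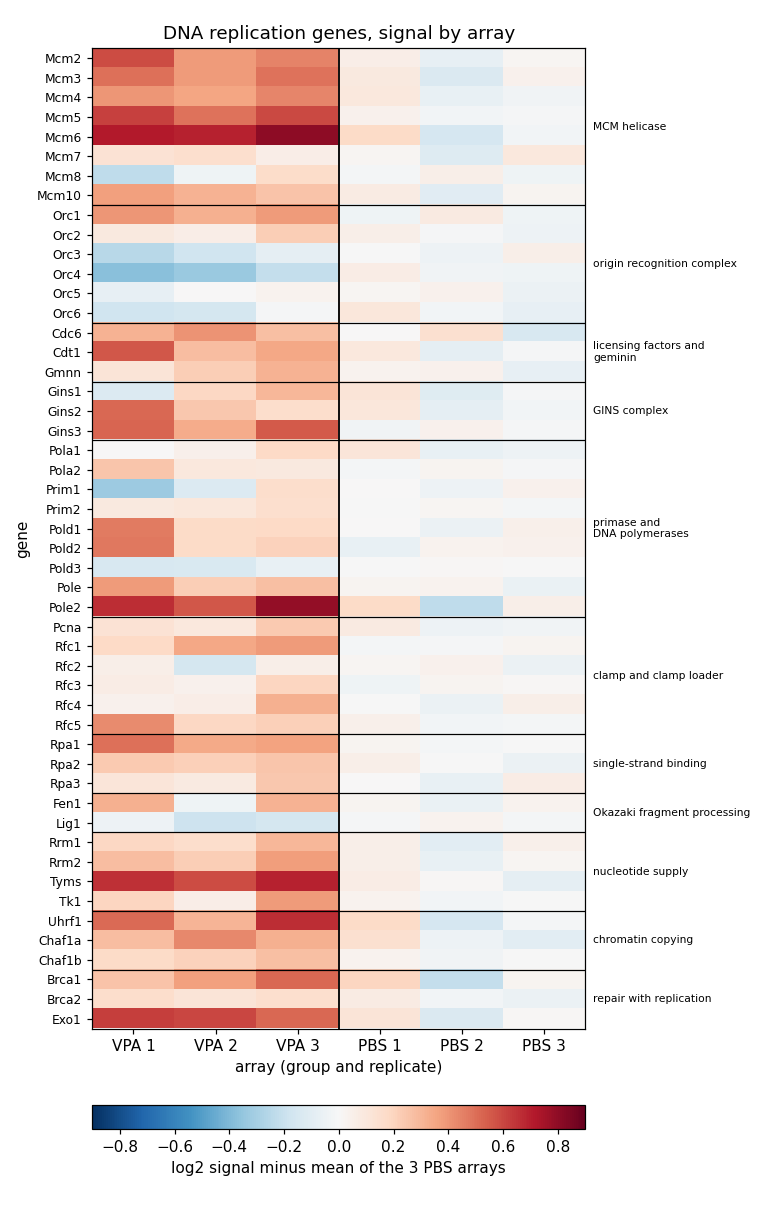
Log2 signal of the 50 DNA replication genes (rows, grouped by role) on the 3 VPA arrays and the 3 PBS arrays (columns), each as the difference from the mean of the 3 PBS arrays. Mcm6, Pole2, Tyms and Exo1 are deep red on all VPA arrays, Orc4 is blue on all of them, and Prim1, Gins1 and Mcm8 are blue on VPA replicate 1 but not on VPA replicate 3.

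Genes of the MCM helicase rose together, 6 of 8, with a median change of 0.43. Mcm6, a subunit of the ring, had 8.91, 8.89 and 9.00 with VPA, against 8.37, 8.04 and 8.17 with PBS, a change of 0.74 (SE 0.08, adjusted p = 0.000269) or 1.67-fold, the largest among the 50 genes. Mcm5, another subunit, had 9.14, 9.02 and 9.13 with VPA, against 8.57, 8.51 and 8.52 with PBS, a change of 0.57 (SE 0.06, adjusted p = 0.00016). For both genes every VPA array lay above every PBS array. Mcm2, Mcm3 and Mcm4 rose by 0.47, 0.46 and 0.40, each with an SE of 0.06 to 0.07. Mcm7, the remaining subunit of the ring, averaged 9.27 ± 0.05 with VPA and 9.16 ± 0.11 with PBS (SD, n = 3 each), and its groups overlapped. Its change of 0.11 did not pass (adjusted p = 0.261), with a 95% confidence interval of -0.04 to 0.27 that lies below the intervals of Mcm5 and Mcm6, which start at 0.43 and 0.54; the difference between the genes was not tested. Mcm10, which binds the helicase and polymerase alpha, rose by 0.31 (SE 0.07). Mcm8, a helicase of recombination repair outside the ring, differed by -0.03 (95% confidence interval -0.25 to 0.18), and by 0.06 without VPA replicate 1.

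Of the 6 genes of the origin recognition complex 1 rose and 1 fell (16.7% each), near the 13.6% and 15.7% of all genes. Their median change was -0.06, and no difference from the other role groups was tested. Orc1, the subunit whose level follows the cell cycle in human cells, had 6.24, 6.17 and 6.22 with VPA, against 5.80, 5.93 and 5.80 with PBS, a change of 0.37 (SE 0.06, adjusted p = 0.00195). Its PBS mean of 5.84 lay below the gauge of background, so the size of this rise is not defined. Orc4 had 8.41, 8.45 and 8.57 with VPA, against 8.85, 8.76 and 8.75 with PBS, a change of -0.31 (SE 0.06, adjusted p = 0.0073). It was the single gene of the 50 that fell, to 0.81 of its PBS level, with no overlap of the groups. Orc3 differed by -0.17 (adjusted p = 0.0772), also without overlap, and its difference passed when VPA replicate 3 was left out (adjusted p = 0.0474). Orc2, Orc5 and Orc6 differed by 0.12, -0.01 and -0.12 and did not pass.

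All 3 genes of the licensing factors and their inhibitor geminin passed the threshold with higher values under VPA. Cdt1, which brings the MCM ring to the origin, had 8.24, 7.96 and 8.04 with VPA, against 7.78, 7.60 and 7.67 with PBS, a change of 0.39 (SE 0.08, adjusted p = 0.00732). Cdc6, the ATPase that loads the ring, had 7.16, 7.25 and 7.12 with VPA, against 6.85, 6.99 and 6.70 with PBS, a change of 0.33 (SE 0.08, adjusted p = 0.015). Gmnn encodes geminin, which blocks Cdt1 once DNA has been copied. Its values were 5.59, 5.70 and 5.79 with VPA, against 5.51, 5.52 and 5.40 with PBS, a change of 0.22 (SE 0.07, adjusted p = 0.0419). In none of the 3 genes did the groups overlap, but both means of Gmnn, 5.69 and 5.47, lay below the gauge, so whether the gene was expressed cannot be told here. The call of Gmnn was lost without any 1 array other than VPA replicate 1 (adjusted p = 0.0864 to 0.157), and that of Cdc6 without VPA replicate 2 (0.0537), PBS replicate 1 (0.0547) or PBS replicate 3 (0.0587).

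Of the 3 listed genes of the GINS complex, which joins the helicase in S phase, 2 rose. Gins3 had 7.83, 7.63 and 7.85 with VPA, against 7.27, 7.34 and 7.29 with PBS, a change of 0.47 (SE 0.07, adjusted p = 0.0012). Gins2 had 8.68, 8.40 and 8.32 with VPA, against 8.27, 8.08 and 8.14 with PBS, a change of 0.31 (SE 0.10, adjusted p = 0.0408). Its call was lost without VPA replicate 2 (0.0613) or PBS replicate 1, 2 or 3 (0.0574, 0.142 and 0.117). Gins1 had 7.17, 7.48 and 7.60 with VPA, against 7.41, 7.19 and 7.29 with PBS, so that VPA replicate 1 lay below all PBS arrays and the other VPA arrays above them. Its change of 0.12 did not pass (adjusted p = 0.45), whereas without VPA replicate 1 it was 0.24 (adjusted p = 0.0308). Gins4, a further subunit counted below among the other replication genes, differed by -0.05 and did not pass.

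Among the 9 listed genes of primase and the DNA polymerases 4 rose. They encode some of the subunits of polymerases epsilon and delta, which extend the leading and the lagging strand. Pole2, the second subunit of polymerase epsilon, had 7.45, 7.34 and 7.57 with VPA, against 6.95, 6.55 and 6.83 with PBS, a change of 0.67 (SE 0.11, adjusted p = 0.00147) or 1.59-fold. Pole, its catalytic subunit, had 7.81, 7.64 and 7.70 with VPA, against 7.45, 7.45 and 7.37 with PBS, a change of 0.29 (SE 0.06, adjusted p = 0.00838). All VPA arrays exceeded all PBS arrays for this pair. Pold1, the catalytic subunit of polymerase delta, and its partner Pold2 rose by 0.28 (adjusted p = 0.0383) and 0.29 (adjusted p = 0.033). Both calls were lost without PBS replicate 1, 2 or 3, with adjusted p = 0.105, 0.13 and 0.0773 for Pold1 and 0.124, 0.0792 and 0.0748 for Pold2. With the replicate number as a block, Pold2 did not pass (adjusted p = 0.0507) and neither did Gmnn (0.0747). Pold3, an accessory subunit, differed by -0.12 (95% confidence interval -0.24 to 0.004). Further subunits of polymerases epsilon and delta are counted below among the other replication genes. Of these, Pole3 and Pole4 differed by -0.05 and -0.13 and did not pass, and Pold4 fell by 0.36. Of the polymerase alpha and primase complex, which starts each strand, no gene passed. Pola1, Pola2, Prim1 and Prim2 differed by 0.08, 0.14, -0.10 and 0.11, of which Pola2 had an unadjusted p of 0.048, and Prim1 by 0.02 without VPA replicate 1.

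The sliding clamp and its loader, replication factor C, had 2 of 6 genes higher. Rfc1, the large subunit of the loader, had 8.45, 8.62 and 8.65 with VPA, against 8.25, 8.26 and 8.29 with PBS, a change of 0.30 (SE 0.07, adjusted p = 0.00914). Rfc5, a small subunit, had 9.88, 9.65 and 9.67 with VPA, against 9.50, 9.43 and 9.44 with PBS, a change of 0.28 (SE 0.07, adjusted p = 0.0203). Neither pair of groups overlapped, though the call of Rfc5 was lost without PBS replicate 2 (0.0775) or PBS replicate 3 (0.073). Pcna, the clamp itself, averaged 10.87 ± 0.08 with VPA and 10.72 ± 0.07 with PBS (SD, n = 3 each), a change of 0.15 (95% confidence interval 0.01 to 0.30) that did not pass (adjusted p = 0.112). Its second probe set gave 0.16, and RefSeq lists 2 pseudogenes named for Pcna, whose hybridization was not tested. Rfc2, Rfc3 and Rfc4 differed by -0.02, 0.10 and 0.14 and did not pass.

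Replication protein A coats single-stranded DNA at the fork, and 2 of its 3 genes rose. Rpa1, the large subunit that holds most of the DNA contacts, had 9.52, 9.37 and 9.39 with VPA, against 9.05, 9.01 and 9.02 with PBS, a change of 0.40 (SE 0.06, adjusted p = 0.00127). Rpa2 had 8.41, 8.39 and 8.43 with VPA, against 8.23, 8.17 and 8.12 with PBS, a change of 0.23 (SE 0.06, adjusted p = 0.0131), which did not pass without PBS replicate 2 (0.0567) or PBS replicate 3 (0.0661). Rpa3 had 8.63, 8.60 and 8.77 with VPA, against 8.53, 8.46 and 8.59 with PBS, a difference of 0.14 (adjusted p = 0.142). The VPA arrays lay above the PBS arrays for all 3, by a small margin for Rpa3, whose second probe set gave 0.17.

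Neither gene of Okazaki fragment processing passed, and they differed in opposite directions. Fen1, the nuclease that trims the flap left by the primer, had 7.22, 6.86 and 7.22 with VPA, against 6.93, 6.85 and 6.93 with PBS, a difference of 0.20 (adjusted p = 0.165). Lig1, the ligase that seals the fragments, had 9.01, 8.87 and 8.90 with VPA, against 9.05, 9.09 and 9.04 with PBS, a difference of -0.13 (adjusted p = 0.142). VPA replicate 2 alone brought the Fen1 groups into overlap, and without it the difference was 0.32 (adjusted p = 0.0105). All VPA values of Lig1 lay below its PBS values, and without VPA replicate 1 the difference was -0.17 (adjusted p = 0.0228).

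Nucleotide supply had 3 of 4 genes higher. Tyms, the enzyme that makes thymidylate, had 8.90, 8.83 and 8.93 with VPA, against 8.31, 8.26 and 8.16 with PBS, a change of 0.65 (SE 0.06, adjusted p = 0.000109) or 1.56-fold. Rrm2, the regulated subunit of ribonucleotide reductase, had 8.83, 8.77 and 8.93 with VPA, against 8.60, 8.49 and 8.57 with PBS, a change of 0.29 (SE 0.06, adjusted p = 0.00894). Groups were separate for each. RefSeq also lists a transcribed pseudogene named for Tyms, and cross-hybridization was not tested. Rrm1, the large subunit of the reductase, rose by 0.21 (adjusted p = 0.0375), a call lost without any 1 array other than VPA replicate 1 (adjusted p = 0.0533 to 0.158). Tk1, the thymidine kinase of dividing cells, differed by 0.21 (SE 0.08, adjusted p = 0.0854) by its brighter probe set, with 7.95, 7.81 and 8.14 with VPA, against 7.79, 7.73 and 7.75 with PBS. By its other probe set it had 8.01, 7.72 and 7.93 with VPA, against 7.48, 7.23 and 7.24 with PBS, and rose by 0.57 (SE 0.09, adjusted p = 0.00215 over all probe sets with 1 symbol). The probe sets thus disagreed on the size and the call. By the brighter probe set the difference also passed without VPA replicate 2 (0.29, adjusted p = 0.0283).

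The 3 listed genes that rebuild chromatin behind the fork rose. Uhrf1, which brings the maintenance DNA methyltransferase to newly copied DNA, had 7.99, 7.79 and 8.15 with VPA, against 7.66, 7.33 and 7.47 with PBS, a change of 0.49 (SE 0.11, adjusted p = 0.00803). Chaf1a and Chaf1b encode subunits of the chromatin assembly factor that places histones on new DNA. Chaf1a had 7.50, 7.65 and 7.54 with VPA, against 7.36, 7.17 and 7.12 with PBS, a change of 0.35 (SE 0.08, adjusted p = 0.00965). Chaf1b had 8.58, 8.61 and 8.68 with VPA, against 8.44, 8.38 and 8.41 with PBS, a change of 0.22 (SE 0.06, adjusted p = 0.0181). All VPA arrays were above all PBS arrays for the 3 genes, but the call of Chaf1b was lost without VPA replicate 3 (0.0558), PBS replicate 2 (0.0829) or PBS replicate 3 (0.066). Genes with related roles, counted below among the other replication genes, were mixed. Asf1b, Cdca7 and Hells rose, whereas Dnmt1, Nasp, Supt16 and Asf1a differed by -0.05, -0.16, -0.04 and 0.03 and did not pass.

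Of the repair genes active during replication, 2 of 3 rose. Exo1, an exonuclease of mismatch repair and recombination, had 7.35, 7.33 and 7.25 with VPA, against 6.85, 6.60 and 6.74 with PBS, a change of 0.58 (SE 0.07, adjusted p = 0.000453) or 1.49-fold. Brca1, which acts in homologous recombination, had 7.61, 7.73 and 7.88 with VPA, against 7.55, 7.15 and 7.38 with PBS, a change of 0.38 (SE 0.11, adjusted p = 0.0269). Brca2, which acts in the same pathway, had 7.67, 7.63 and 7.66 with VPA, against 7.59, 7.49 and 7.46 with PBS, a difference of 0.14 (adjusted p = 0.101). No groups overlapped, although VPA replicate 1 and PBS replicate 1 were close for Brca1. The call of Brca1 was lost without VPA replicate 2 (0.062), VPA replicate 3 (0.0876), PBS replicate 2 (0.0901) or PBS replicate 3 (0.0698).

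**Figure D2:**
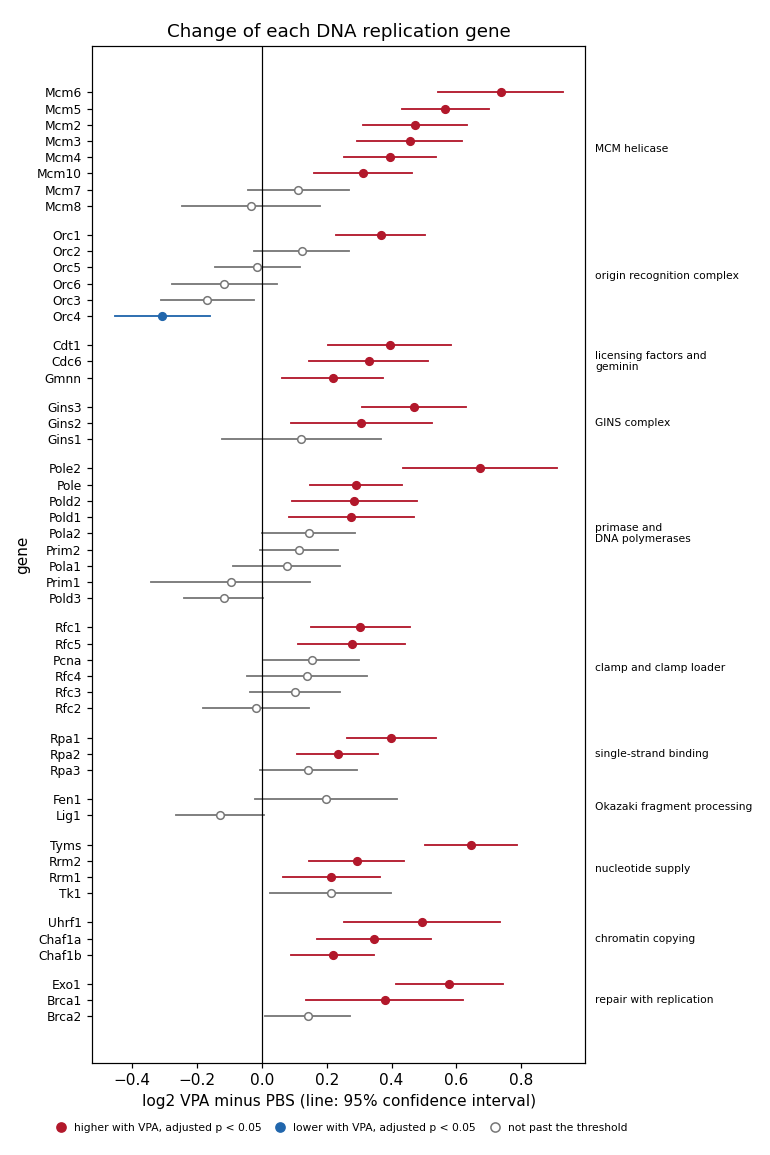
Change of each DNA replication gene (log2 VPA minus PBS, horizontal axis) with its 95% confidence interval from limma, grouped by role and sorted within it. The 28 genes that rose are filled red, Orc4, which fell, is blue, and the 21 that passed in neither direction are open grey, among them most of the origin recognition complex and the whole polymerase alpha and primase complex.

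Of 49 other replication genes measured, 14 (28.6%) rose and 3 (6.12%) fell, against 13.6% and 15.7% of all genes. Their median change was -0.0015. Asf1b, a histone chaperone that works with the chromatin assembly factor, averaged 9.31 ± 0.09 with VPA and 8.53 ± 0.10 with PBS (SD, n = 3 each), a rise of 0.78 (SE 0.07). Cdca7, which works with the remodeller Hells, rose by 0.79 (SE 0.08), and Ticrr, which helps to start origins, by 0.50 (SE 0.06). Donson, a factor of replication forks, changed by -0.65 (SE 0.07). The other genes that fell were Pold4, at -0.36, and Top1, at -0.29, both named after their values were seen. The call of Pold4 was lost without any 1 array other than VPA replicate 1 (adjusted p = 0.0825 to 0.123) and without moderation (0.181), and that of Top1 without PBS replicate 1 (0.0925) or PBS replicate 2 (0.0656), without moderation (0.105) and after quantile normalization (0.061). The number that rose was 9 without PBS replicate 2, and the number that fell was 5 without VPA replicate 1 and 1 without PBS replicate 1 or PBS replicate 2.

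The regulators and the later steps of the cycle were measured beside them. Among 13 genes of the E2F and Rb family, 6 (46.2%) rose and 1 (7.69%) fell, with a median of 0.19. Over all genes 13.6% rose and 15.7% fell. E2f1, an activator of replication genes, averaged 8.65 ± 0.12 with VPA and 8.05 ± 0.11 with PBS (SD, n = 3 each), a rise of 0.60 (SE 0.08). E2f8 and E2f7, which repress such genes later in the cycle, rose by 0.54 (SE 0.10) and 0.37 (SE 0.06), and E2f3 by 0.31 (SE 0.06). Without moderation of the variances E2f8 did not pass (adjusted p = 0.0588). Rb1, which holds E2F factors inactive, changed by -0.19 (adjusted p = 0.0407), a call lost without VPA replicate 3 (0.0727) and without PBS replicate 1, 2 or 3 (0.106, 0.102 and 0.139), with the replicate block (0.0682), without moderation (0.0708) and after quantile normalization (0.145). Of 11 genes listed as cyclins and kinases of G1 and S 10 (90.9%) rose, with a median of 0.57 over the list. That number was 8 without moderation, and 8 at an adjusted p under 0.01. It was also 8 without VPA replicate 3, PBS replicate 2 or PBS replicate 3. Among the 10 were Cdk1 (0.57), the kinase of mitosis, and Cdc25a (0.24), a phosphatase. The remaining gene, Cdk4, differed by -0.09. Ccne1, the cyclin that starts S phase, rose by 0.98 (SE 0.07), and the D cyclins Ccnd2, Ccnd3 and Ccnd1, which act in G1, by 0.62, 0.62 and 0.60. In the mitosis list 19 of 34 rose and the others did not pass, with a median of 0.32 over the list. Anln, Aurkb, Bub1 and Birc5, which act in chromosome segregation and cytokinesis, rose by 0.75, 0.57, 0.54 and 0.52, of which Aurkb did not pass without moderation (adjusted p = 0.051). The number of mitosis genes that rose was 12 without PBS replicate 3. The DNA replication genes rose at a share of 56% against 55.9% in the mitosis list, and no difference between lists was tested.

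**Figure D3:**
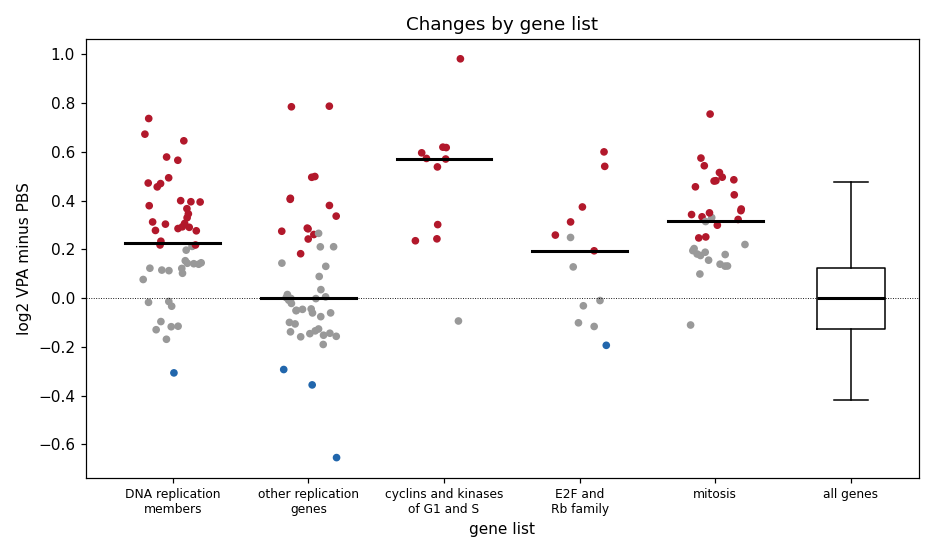
Change with VPA (log2 VPA minus PBS, vertical axis) of each gene in 5 lists, with a black line at the median (0.23, -0.0015, 0.57, 0.19 and 0.32), and over all genes as a box of the quartiles with whiskers at the 5th and 95th percentiles. Red points rose and blue points fell at an adjusted p under 0.05, and grey points passed in neither direction.

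Marker genes of cell types are set beside this result, where 13.6% of all genes rose and 15.7% fell. All 14 fibroblast and matrix genes measured rose (median 1.37), and their mean log2 signal per array was 9.40 to 9.50 with VPA and 7.88 to 8.09 with PBS. Of 10 endothelial genes 8 rose (6.77 to 6.92 with VPA, 6.18 to 6.25 with PBS), and of 10 muscle genes also 8 (7.28 to 7.74 with VPA, 6.13 to 6.21 with PBS). Among those that rose, Cdh5, Tie1, Emcn, Esam, Myh3, Myl1 and Des had PBS means below the gauge of background, so the size of their rises is not defined. Of 15 neuron genes 10 fell and 2 rose (10.66 to 10.70 with VPA, 10.75 to 10.83 with PBS). The tubulin gene Tubb3, named as a marker, changed by -0.27, and the largest fall was that of Mapt, at -0.53. The 2 that rose were Nefm, by 1.24, the largest change of the list by size, and Nefl, by 0.53. Neural progenitor genes rose for 4 of 14 and fell for 1 (9.85 to 9.99 with VPA, 9.75 to 9.80 with PBS), and glia genes rose for 2 of 10 and fell for 5 (7.14 to 7.24 with VPA, 7.17 to 7.31 with PBS). Of 10 pluripotency genes 1 rose and the others did not pass (5.74 to 5.90 with VPA, 5.61 to 5.82 with PBS), and 8, Pou5f1 and Nanog among them, lay below the gauge of background in both groups. The part of these cell types in the rise of the replication genes was not tested.

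**Figure D4:**
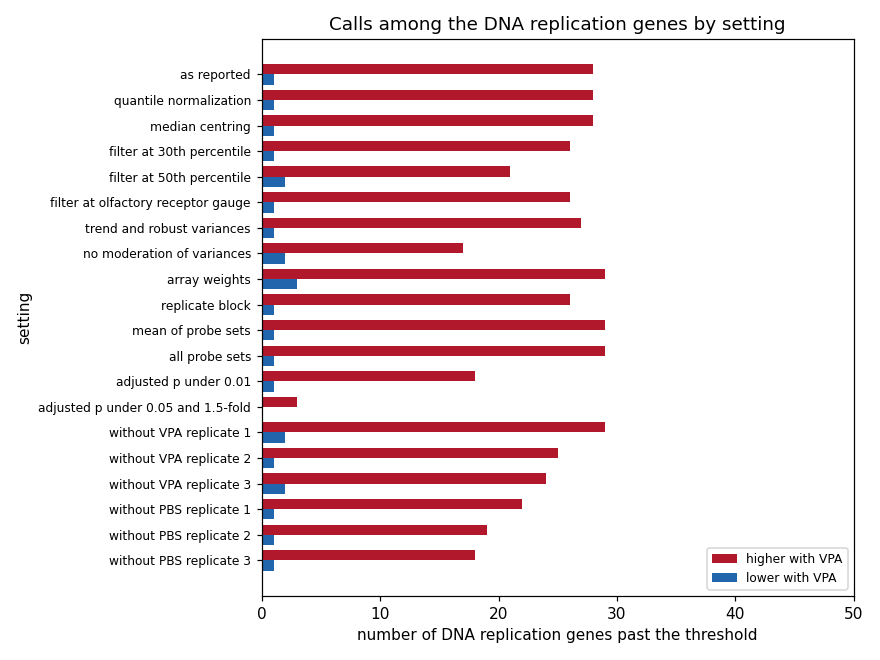
Number of the 50 DNA replication genes that rose (red) or fell (blue) with VPA past the threshold (horizontal axis) under each processing setting and with each array left out (vertical axis). The number that rose is 28 as reported and lies between 18 and 29 with 1 array left out, and the number that fell is 1 or 2 there.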

How the data were processed

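Trizol extracts of total RNA were amplified into biotinylated sense-strand DNA with an Affymetrix whole transcript kit, per the labels' protocols. The authors deposited the values as log2 signals per probe set, already normalized, in a column per array. That the base of the logarithm is 2 follows from the values, which run from 2.50 to 13.89. The submitters' processing notes name Partek 6.5 and build mm9 without saying what they were used for. How background was corrected, probes summarized and arrays normalized is not given in the sources used here.

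GEO's platform annotation paired 21789 of the 35556 probe sets with a single symbol, 1621 with several and 12146 with none. Current symbols came from RefSeq by Entrez gene ID, for 21698 of them. Each of 19938 genes was read from its brightest probe set over all arrays. VPA was tested against PBS in limma 3.58.1 (R 4.3.3) with lmFit and eBayes and no covariate. The p-values were adjusted by Benjamini-Hochberg over all genes, and each change is given on the log2 scale as VPA less PBS, with limma's moderated SE and 95% confidence interval. With 3 arrays in each group the smallest two-sided p of an exact permutation test is 0.1, and single genes were not tested that way.

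The replication genes and all lists were chosen with earlier results of these data known, and the counts of a list are descriptions. Values on every array are given for the genes with the 2 largest changes in each role group, for all genes of groups of up to 3, and for the gene that fell. Of the other cycle lists, up to 4 genes with the largest change are named, others where said. Promoters were printed for the 2 largest rises and the largest fall. The alternatives were other scalings, filters on dim genes, variance models, array weights, the replicate block, other probe set rules and thresholds, and leaving out each array. Entries of the lists with no probe set of their own symbol were not analysed here.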

Additional observations from a re-analysis of the deposited data

Results flagged for a closer look

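The second, dimmer probe set of Tk1, which the report's counts do not use, gave a change of 0.57 (VPA minus PBS, log2, SE 0.09), with a mean of 7.89 ± 0.15 with VPA and 7.32 ± 0.14 with PBS (SD, n = 3 each). It drew attention because it lay above the control level by more than the spread between arrays (limma, adjusted p = 0.00215), while the brighter probe set, at 0.21, did not pass. The mean of the pair gave 0.39 (adjusted p = 0.0067). Both probe sets carry the symbol Tk1 alone, and which one measures the gene's own transcript was not tested.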

How the results depend on the processing

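Of the 28 replication genes that rose, 14 kept the call, at an adjusted p under 0.05, under every alternative that gave them a value, up to 17 each and the stricter thresholds not among them, and 18 kept it without any 1 array. The fall of Orc4 was kept in the same 17. A filter on dim genes at the 50th percentile left 10 of the 50 genes without a value, 4 of the 14 among them (Mcm10, Orc1, Pole2 and Exo1), and Gmnn and Orc1 had none under any of the 3 filters. The replication genes that rose numbered 17 without moderation of the variances, 18 at an adjusted p under 0.01 and 3 with a further 1.5-fold threshold. Those that fell numbered 2 with the filter at the 50th percentile, 2 without moderation, 3 with array weights and 0 with the 1.5-fold threshold. Their median change was 0.27 after quantile normalization. With 1 array left out, the number that rose was 18 to 29, the number that fell 1 to 2, and the median 0.21 to 0.29.

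Over all genes, 1520 rose with the filter at the 50th percentile, 1631 without moderation and 4342 with array weights. After quantile normalization 3147 rose and 2671 fell, so that more rose than fell, unlike in the values as deposited. With the filter at the gauge of background, 2286 of 13959 genes rose and 3185 fell. At an adjusted p under 0.01, 1579 rose and 1791 fell, and 695 and 432 with the 1.5-fold threshold. With 1 array left out these counts were 1778 to 3949 and 2058 to 4224. Of the other replication genes, 9 rose at 0.01 and 2 at 1.5-fold, and 1 fell under each of these and without moderation, against 8 with array weights. With 1 array left out, 9 to 16 of them rose and 1 to 5 fell. The fall of Rb1 was the single one in the E2F and Rb family. That count was 0 in limma after quantile normalization, without moderation, at 0.01, at 1.5-fold and with the replicate block, and 0 to 1 with an array left out. At 1.5-fold, 1 gene of that family, 4 of the cyclin and kinase list and 1 of the mitosis list rose. Without moderation 1 cyclin or kinase gene fell. Of the mitosis genes 9 rose without moderation, 12 at 0.01, and 12 to 26 with an array left out. The stricter thresholds lower a count by construction, and the cause of the other moves was not tested.

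Changes near 0 turned in direction for 4 genes that passed nowhere. That of Orc5 was 0.021 after quantile normalization and 0.004 with array weights, and that of Rfc2 was 0.0161 after quantile normalization. With 1 array left out the changes ran from -0.134 to 0.0643 for Mcm8, -0.0399 to 0.0159 for Orc5, -0.223 to 0.0174 for Prim1 and -0.0538 to 0.0529 for Rfc2.

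Arrays of the same replicate number did not deviate together, with correlations of -0.02, -0.01 and 0.02 over all genes, so the numbers were not taken to pair the cultures. With the replicate block 26 replication genes rose and 1 fell. The number of arrays limits the precision.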
